A study of Oryza sativa with 6 samples.

Results

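Metallothioneins are small proteins rich in cysteine, whose thiol groups bind copper, zinc and cadmium and react with reactive oxygen. In plants their transcripts are among the abundant ones of leaves, and single members have been tied to metal storage, to the removal of hydrogen peroxide and to leaf ageing. In the rice names used here the Roman numeral after OsMT gives the class and the digit after it the type, so OsMT-I-1b is a type 1 gene of class I, and OsMT-I-2b and OsMT-I-2c are type 2 genes of the same class. Described here are the transcripts of these 3 genes in flag leaves, the leaves just under the panicle. They are 3 of 7 metallothionein genes that were found by name and could be measured, and of 17905 genes in all.

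The arrays came from 3 flag leaf samples of an OsSLAC7 (Os01g0385400) T-DNA insertion mutant and 3 of the wildtype, both of the japonica cultivar Zhonghua11. The plants were untreated and grew in a greenhouse before they were moved to the field. The sample titles call the 3 samples of each group biological replicates. Whether the mutant samples came from 1 insertion line, from homozygous plants or from separate plants is not given in the sources used here. Errors therefore measure the spread between these samples. The values are RMA values, that is, background-corrected and quantile-normalised probe set signals on the log2 scale, and 1 unit is a doubling of signal. Array medians over 57258 probe sets lay between 4.58 and 4.67 in mutant samples and between 4.68 and 4.72 in wild type samples, whereas medians over the 17905 genes stood the other way, between 7.40 and 7.60 in mutant and between 7.21 and 7.29 in wild type samples. The brightest probe set of each array lay between 14.4 and 14.5. Correlations between arrays of a group ran from 0.992 to 0.996, and mutant replicates 1 and 2 had the lowest array weights in limma (0.567 and 0.607). The targeted gene was not matched to a probe set by name and is not analysed here. Of 10 leaf blade markers measured, among them genes of Rubisco and of the light-harvesting antenna, the mean level per array was 11.39 to 11.53 in mutant and 11.35 to 11.45 in wild type samples.

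The genes were chosen by the names OsMT-I-1b, OsMT-I-2b and OsMT-I-2c, with the mutant minus wild type differences of these 6 arrays already known, and each gene was represented by the probe set selected on the highest mean over the 6 arrays. Their differences between the groups are therefore given as a description without a test. Names of this family are easily confused. In the RefSeq table OsMT-I-2b (LOC4326409) also carries the names OsMT2c, MT2B and RICMT, and OsMT-I-2c (LOC4337596) the names OsMT2b and MT2C, so OsMT2b and MT2B are different genes. OsMT-I-1b is LOC4332487, also called MT1B, whereas OsMT1b is a synonym of OsMT-I-4a.

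The type 2 genes OsMT-I-2c and OsMT-I-2b differed from wild type in opposite directions. Signal of OsMT-I-2c was higher in mutant leaves, at 1.61 times the wild type signal, that of OsMT-I-2b was lower, at 0.707 times, and that of the type 1 gene OsMT-I-1b was higher, at 1.54 times. In each of the 3 genes the mutant and wild type values did not overlap. Of the other metallothioneins, OsMT-I-4a and the brightest set of OsMT-I-2a were also separated, with gaps of 0.07 and 0.06. The groups overlapped in OsMT-I-1a and OsMT-I-4c. Among all genes 32.2% were separated in this way with the mutant higher and 13.4% with the mutant lower.

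OsMT-I-2c, whose rice protein is known under the name OsMT2b as a scavenger of reactive oxygen, had values of 12.91, 13.21 and 12.92 in the mutant samples, against 12.24, 12.41 and 12.30 in the wild type samples (replicates 1, 2 and 3 in each case). The lowest mutant value lay 0.49 above the highest wild type value. The means were 13.01 ± 0.17 in mutant and 12.32 ± 0.09 in wild type leaves (SD, n = 3 each), a difference of 0.69 (SE 0.11). Mutant replicate 2 was the highest array, and without it the difference was 0.59. Of all genes, 6.49% had a higher mutant minus wild type difference.

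OsMT-I-2b had values of 12.70, 12.63 and 12.58 in mutant samples, against 13.13, 13.19 and 13.09 in wild type samples. The replicates of each group lay close together, and the highest mutant value was 0.39 below the lowest wild type value. The means were 12.64 ± 0.06 in mutant and 13.14 ± 0.05 in wild type leaves (SD, n = 3 each), so that the difference was -0.50 (SE 0.04). The pooled SD within groups was 0.055, smaller than that of 90.1% of genes, and the median of this SD over all genes was 0.125. A lower difference was seen in 2.08% of genes.

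OsMT-I-1b had values of 7.07, 7.68 and 7.10 in mutant samples, against 6.86, 6.43 and 6.69 in wild type samples. Here the gap between the groups was only 0.21, less than the SD of the mutant samples. The means were 7.28 ± 0.35 in mutant and 6.66 ± 0.22 in wild type leaves (SD, n = 3 each), a difference of 0.62 (SE 0.24). Its pooled SD of 0.29 was exceeded by that of only 4.87% of genes, and mutant replicate 2 was again the highest array. Without that array the difference was 0.42, and with every array centred on its gene median it was 0.41. Of all genes, 7.90% had a higher difference.

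**Figure D1:**
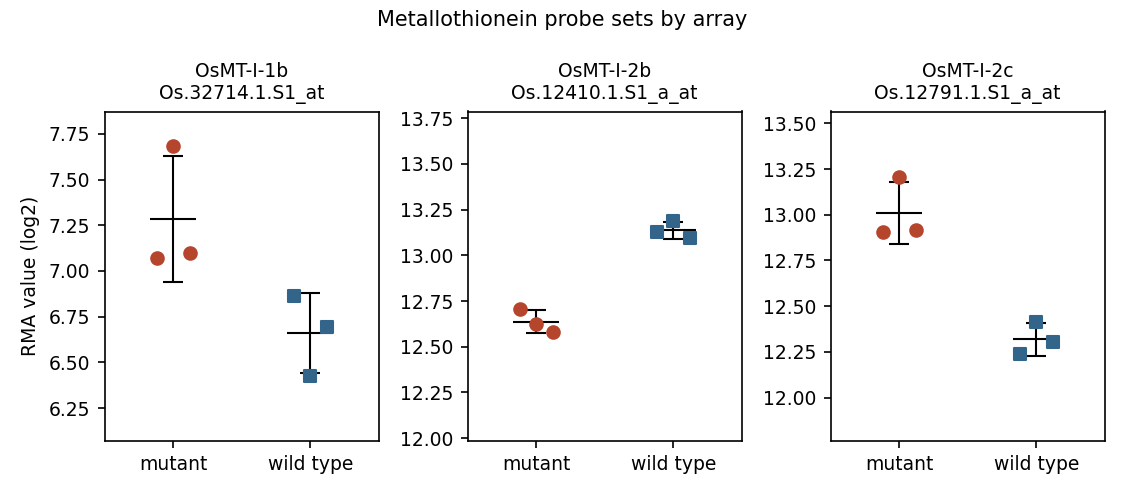
RMA values (log2) of the probe set of each gene on the 3 mutant arrays (circles, left) and the 3 wild type arrays (squares, right), with the group mean (wide bar) and SD (capped line). The vertical axes of the panels span the same range, so that the gap of 0.49 for OsMT-I-2c can be set against that of 0.21 for OsMT-I-1b.

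The log2 difference of OsMT-I-2c minus OsMT-I-2b within each array, a quantity that no scaling of whole arrays can alter, was 0.20, 0.58 and 0.34 in mutant samples, against -0.89, -0.77 and -0.79 in wild type samples. It adds up the differences of the 2 genes already given and is no further evidence of them. Such gaps are differences of signal and do not rank the transcripts, since probe sets differ in how brightly they bind. In whole leaves, a change in the number of cells of a type and a change in RNA per cell cannot be told apart.

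The genes were also seen by further probe sets, which gave the same direction. OsMT-I-2c had 5, whose differences ran from 0.55 to 0.76. Its smallest came from Os.12791.2.S1_a_at, with 12.56, 12.53 and 12.68 in mutant samples against 11.90, 12.16 and 12.05 in wild type samples, and its largest from Os.12791.4.S1_x_at, with 12.32, 12.56 and 12.27 against 11.54, 11.73 and 11.62. Mutant replicate 2 was thus the highest mutant array on the second but the lowest on the first. The remaining sets Os.14153.3.S1_x_at and Os.12791.2.S1_x_at differed by 0.73 (SE 0.10) and 0.56 (SE 0.05).

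OsMT-I-2b had 4 probe sets, with differences from -0.58 to -0.28. The bright sets Os.12410.1.S1_x_at and Os.12410.3.S1_x_at differed by -0.58 (SE 0.09) and -0.49 (SE 0.07). The set Os.12410.2.S1_at was dim, with 2.95, 2.91 and 2.90 in mutant samples against 3.18, 3.23 and 3.21 in wild type samples. At least 76.6% of all probe sets were brighter than it on every array. OsMT-I-1b had a single probe set, Os.32714.1.S1_at, and no second measurement.

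All 10 probe sets separated the groups, 6 with the mutant higher and 4 with the mutant lower. Over all probe sets 16.1% were separated upward and 18.0% downward. Unlike the 10 sets here, 34727 of those were tied to no gene. Among genes the shares were 32.2% and 13.4%. Probe sets of 1 gene share its RNA and often probe sequence, and those ending in _x_at hold probes that can bind other transcripts, so they are not replicates of each other. The sets Os.12410.1.S1_a_at and Os.12791.1.S1_a_at also lay near the top of the scale, with no more than 0.599% and 0.917% of probe sets brighter on any array.

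**Figure D2:**
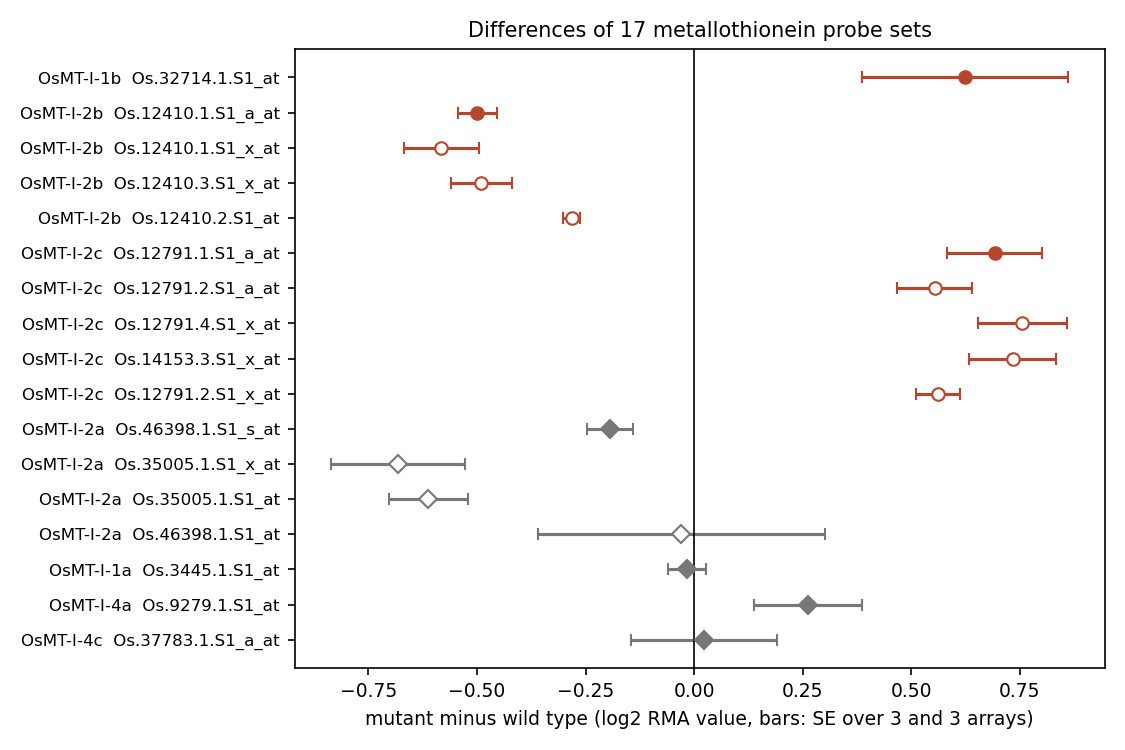
Mutant minus wild type difference (log2 RMA value, horizontal axis) with its SE for all 17 probe sets of the 7 measured metallothionein genes. Circles are OsMT-I-1b, OsMT-I-2b and OsMT-I-2c, diamonds the other genes, and filled symbols the brightest set of each gene; the 5 sets of OsMT-I-2c lie between 0.55 and 0.76 and the 4 of OsMT-I-2b between -0.58 and -0.28.

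The other metallothioneins were then examined with limma, fitted over all genes. Over the whole array 21.0% of genes were higher in the mutant and 6.32% lower at a Benjamini-Hochberg adjusted p under 0.05, and the median difference of all genes was 0.10. This balance depended on the scaling, since 1804 genes were called higher and 3935 lower when every array was centred on its gene median. Of the 4 other metallothioneins none passed in either direction, while 2 had an unadjusted p under 0.05, and their median difference was 0.00. With an intensity trend in the variance model 1 was called higher and 1 lower. OsMT-II-1a and OsMT-I-4b had no probe set of their own and were not analysed here.

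OsMT-I-1a, the other type 1 gene measured, had 13.12, 12.98 and 13.03 in mutant samples against 13.09, 13.05 and 13.04 in wild type samples. The groups overlapped, and the difference was -0.02 (SE 0.07, limma adjusted p = 0.882). OsMT-I-4a had 11.99, 12.29 and 11.89 in mutant samples against 11.81, 11.82 and 11.75 in wild type samples. The difference was 0.26 (SE 0.11, limma adjusted p = 0.121). It was called higher under 1 of 14 alternatives, the intensity trend, and over all 14 its limma adjusted p ran from 0.0198 to 0.793. As in OsMT-I-1b and OsMT-I-2c, mutant replicate 2 was the highest array of OsMT-I-4a. OsMT-I-4c was dim, at 3.05 ± 0.23 in mutant and 3.03 ± 0.18 in wild type leaves (SD, n = 3 each), and differed by 0.02 (SE 0.14, limma adjusted p = 0.919).

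OsMT-I-2a, the third type 2 gene, had differences below 0 on all its 4 probe sets, but of unlike size. Its brightest set, Os.46398.1.S1_s_at, had 13.79, 13.89 and 13.73 in mutant samples against 14.04, 14.00 and 13.95 in wild type samples. This difference of -0.19 (SE 0.08) did not pass over all genes (limma adjusted p = 0.0995). The gene was called lower under 5 of 14 alternatives, and over all 14 its adjusted p ran from 0.00378 to 0.312. With an intensity trend or brighter genes only, the call was for this same -0.19. With gene median centring the value called was -0.41, with the mean of the probe sets -0.38, and without sets ending in _x_at or _s_at it was -0.61, from the set Os.35005.1.S1_at. At most 0.0751% of probe sets were brighter than Os.46398.1.S1_s_at on any array. An _s_at set holds probes shared between transcripts. Os.35005.1.S1_at, without shared probes by its name, had 4.80, 4.93 and 4.72 in mutant samples against 5.55, 5.32 and 5.42 in wild type samples. It fell by 0.61 (SE 0.11) in the fit over all probe sets, with limma adjusted p = 0.00918, and Os.35005.1.S1_x_at fell by 0.68 (SE 0.14, adjusted p = 0.0163). The fourth, Os.46398.1.S1_at, differed by -0.03 (SE 0.24, limma adjusted p = 0.95), with overlapping groups. In that fit, which also held the sets tied to no gene, 6.52% of probe sets were called higher and 3.31% lower. Of the 7 sets of the other metallothioneins none was called higher and 2 lower.

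To place the 3 genes among others, the values of each were centred on their own mean and set against those of the other 2457 genes with a name, by the root mean square difference over the 6 arrays. This measure follows both the difference between the groups and the scatter between arrays. The nearest genes were picked for their small distance, so they lie below the median of all distances by construction. Nearest to OsMT-I-2c were the dehydrin gene RAB16C, which differed from it by 0.060, OsSAP8, of the stress-associated zinc finger proteins, by 0.066, and SodCc2, a cytosolic copper/zinc superoxide dismutase, by 0.069, against a median of 0.351 over the named genes. Nearest to OsMT-I-2b were OsOPR12, of the oxophytodienoate reductase family, at 0.032, PSB28, a photosystem II assembly factor, at 0.035, and OsRR4, a cytokinin response regulator, at 0.035, with a median of 0.321. OsMT-I-1b, with a pooled SD within groups of 0.29 against 0.055 for OsMT-I-2b, had no neighbour as close. OsbHLH142, a transcription factor of the anther tapetum, was at 0.141, the thioredoxin-like OsCXXS1 at 0.149 and the receptor kinase gene OsER2 at 0.166, with a median of 0.392. OsbHLH142 and OsOPR12 were dim, with values between 2.30 and 3.25 and between 3.45 and 4.12.

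**Figure D3:**
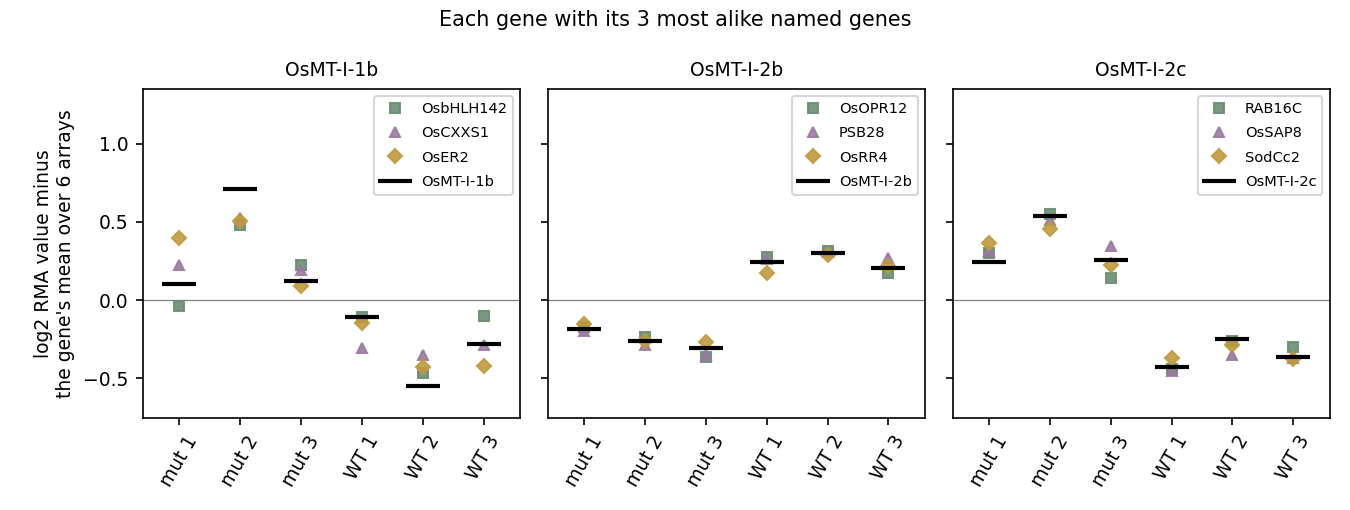
Log2 RMA values minus each gene's mean over the 6 arrays (vertical axis) on the mutant (mut) and wild type (WT) arrays (horizontal axis), for each metallothionein (black bars) and its 3 nearest named genes (coloured symbols). The neighbours of OsMT-I-2b differ from it by a root mean square of 0.032 to 0.035, those of OsMT-I-1b by 0.141 to 0.166, and OsMT-I-1b lies above its neighbours on mutant replicate 2.

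Genes of metal transport, those of iron among them, gave calls in both directions. Of 32 measured transporters and copper chaperones matched by name, 6 rose, 4 fell and 22 did not pass, where 21.0% of all genes were called higher and 6.32% lower. Their median difference was -0.07 against 0.10 for all genes. CCS, the chaperone that loads copper into superoxide dismutase, had 9.18, 9.11 and 9.25 in mutant samples against 8.46, 8.25 and 8.27 in wild type samples. It rose by 0.85 (SE 0.09, limma adjusted p = 0.000569). HMA4, a copper-transporting ATPase, had 7.78, 7.74 and 7.66 in mutant against 7.05, 7.05 and 6.96 in wild type samples and rose by 0.71 (SE 0.07, adjusted p = 0.0007). NRAMP4, of a family of divalent metal transporters, rose by 0.996 (SE 0.09, adjusted p = 0.000352), and the vacuolar iron transporter OsVIT2 fell by 0.86 (SE 0.09, adjusted p = 0.00074). The copper importer COPT1 differed by -0.22 (SE 0.10) and did not pass (adjusted p = 0.129). When every array was centred on its gene median, 12 members fell.

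Of 5 genes that make or release other metal chelators, none rose and 2 fell, both nicotianamine synthases, beside 21.0% higher and 6.32% lower among all genes. The median difference was -0.17. NAS3 had 7.19, 6.90 and 7.24 in mutant samples against 8.56, 8.50 and 8.42 in wild type samples, and fell by 1.39 (SE 0.11, limma adjusted p = 0.000181). NAS2 fell by 0.75 (SE 0.19, adjusted p = 0.0256), a call that was lost when mutant replicate 3 or any of the wild type arrays was left out. NAS1 differed by -0.17 (SE 0.11, adjusted p = 0.286).

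Genes that make or remove reactive oxygen, the other known target of metallothioneins, gave 6 rises and 1 fall among 14 measured, with a median difference of 0.26 against 0.10 for all genes, of which 21.0% were called higher and 6.32% lower. The 3 copper/zinc superoxide dismutases matched by name were all among those that rose. SodCc2 had 10.31, 10.39 and 10.16 in mutant samples against 9.57, 9.65 and 9.56 in wild type samples, a rise of 0.69 (SE 0.08, limma adjusted p = 0.00134). The chloroplast enzyme gene sodCp rose by 0.62 (SE 0.08, adjusted p = 0.00144), and SodCc1, named here after its value was seen, by 0.47 (SE 0.08, adjusted p = 0.00481). Highest among the genes of the list was the catalase gene catA, up by 1.45 (SE 0.07, adjusted p = 3.35e-05). The remaining rises were those of CatB by 0.40 (SE 0.07, adjusted p = 0.00673) and OsrbohB by 0.41 (SE 0.07, adjusted p = 0.00585). Both were named here after their values were seen. The alternative oxidase gene AOX1a fell by 0.60 (SE 0.09, adjusted p = 0.00304). None of the ascorbate peroxidase genes APX1, APX2, APX4, APX5, APX6, APX7 and APX8 passed, and their differences ran from -0.13 for APX2 to 0.38 for APX5.

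**Figure D4:**
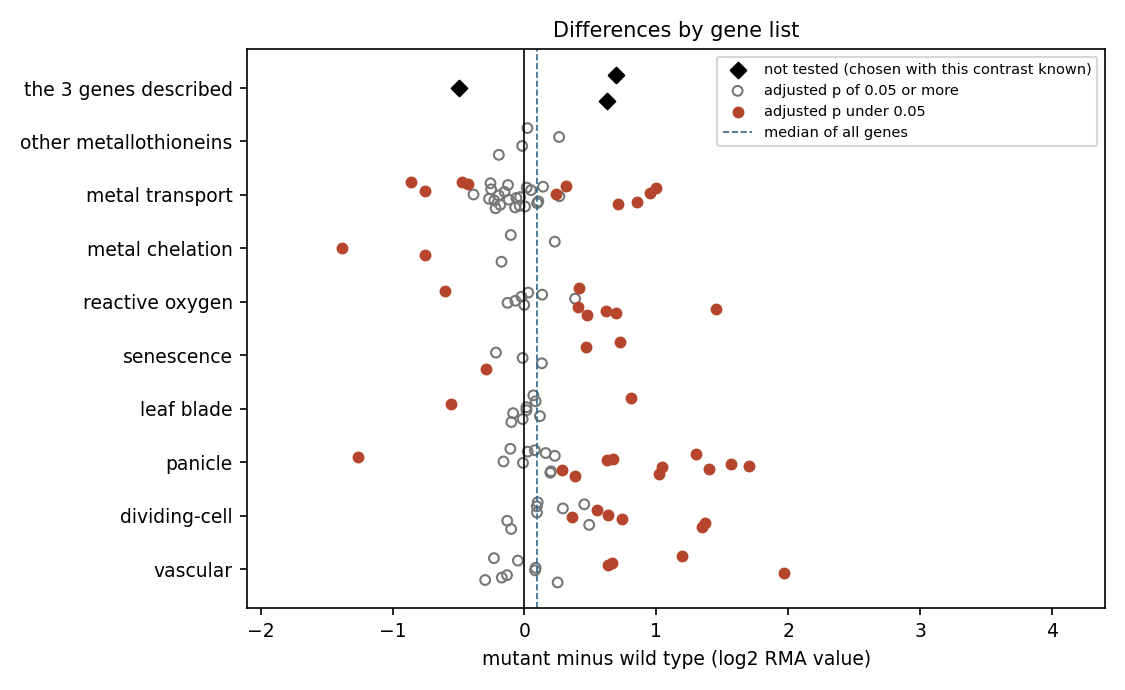
Mutant minus wild type differences (log2 RMA value, horizontal axis) of the 3 genes described (black diamonds), of the other metallothioneins and of the members of 8 lists, with filled circles for genes past an adjusted p of 0.05 in limma over all genes and open circles for the rest. The dashed line marks the median of all genes, 0.10; the 4 other metallothioneins lie between -0.19 and 0.26.

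Metallothionein transcripts also change with leaf age and differ between organs, so markers of both were read beside them. Of 6 senescence genes 2 rose and 1 fell, against 21.0% higher and 6.32% lower among all genes, and their median difference was 0.06. OsRCCR1 rose by 0.72 (SE 0.08, limma adjusted p = 0.000931) and NOL by 0.47 (SE 0.08, adjusted p = 0.00686), both genes of chlorophyll breakdown, whereas SGR and NYC1, of the same process, differed by -0.01 (adjusted p = 0.907) and -0.22 (adjusted p = 0.145) and did not pass. The call of NOL was lost when every array was centred on its gene median. The protease gene OsSAG12 fell by 0.29 (SE 0.08, adjusted p = 0.0331), a call lost without mutant replicate 1, mutant replicate 2 or any of the wild type arrays, and also with probe set centring or an intensity trend. Of 20 panicle and flower markers 10 rose and 1 fell, against 21.0% higher and 6.32% lower among all genes, at a mean level per array of 5.72 to 5.88 in mutant and 5.33 to 5.38 in wild type samples. MADS7 and MADS8 rose by 1.71 and 1.57, OsMADS2 by 1.02, and MADS34 fell by 1.26. In wild type samples MADS7 (3.24 to 3.71) and MADS8 (4.10 to 4.36) were dim, below the array medians over all probe sets. OsMADS2 and MADS34 lay above those medians.

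Dividing-cell markers rose in 6 of 14 cases and fell in none, against 21.0% higher and 6.32% lower among all genes, with a mean level of 4.46 to 4.75 in mutant and 4.09 to 4.12 in wild type samples. The mitotic cyclin genes CycB2;2 and CycB1;1 (LOC4327547) led them, with rises of 1.37 (SE 0.17, limma adjusted p = 0.00147) and 1.34 (SE 0.18, adjusted p = 0.00178). CDKB2;1 (0.74) and MCM2 (0.64) followed. In wild type samples CycB2;2 (3.63 to 4.23), CDKB2;1 (4.31 to 4.53) and MCM2 (3.68 to 3.94) were dim, below the array medians over all probe sets. CycB1;1 lay near those medians. Vascular and secondary wall markers rose in 4 of 12 cases and fell in none, beside the same shares of all genes, and their median difference was 0.08 against 0.10 for all genes. Those that rose were LAC7 (1.97), OsSUS1 (1.2), 4CL3 (0.67) and CAD2 (0.63). LAC7 was also dim in wild type samples (3.85 to 4.17), whereas OsSUS1, 4CL3 and CAD2 lay above the array medians. Of the 8 that did not pass, CESA7 (-0.30), OsSUT1 (-0.23), CESA9 (-0.17), LOC4333114 (-0.13) and CCR1 (-0.05) had differences below 0. The list had a mean level of 6.09 to 6.24 in mutant and 5.77 to 5.90 in wild type samples. Of the 10 leaf blade markers GLO3 rose by 0.81 (SE 0.15, limma adjusted p = 0.00822) and PSB28 fell by 0.56 (SE 0.07, adjusted p = 0.00193). The other 8 did not pass, beside the same shares of all genes, and the median difference of the list was 0.02. The part of these other tissues in the differences of OsMT-I-1b, OsMT-I-2b and OsMT-I-2c was not tested.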

How the data were processed

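The authors' deposited log2 values are RMA values made by means of affy, as the submitters' processing notes state without versions; the log2 scale was read from the values. Scanner files were not used here. Without 123 control probe sets, each probe set tied to 1 gene by the platform annotation was named through the RefSeq table of assembly ASM3414082v1, where all 17905 genes were found. No coordinates are given, as the build behind the array is not stated.

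Groups were compared in limma 3.58.1 (R 4.3.3, empirical Bayes, two-sided test, Benjamini-Hochberg adjustment) over all genes, or over all probe sets where stated, without a block; the errors of the 3 genes and of the plots are plain SEs. The code was tested on simulated arrays. The genes and lists were chosen with earlier results of these data known. Named were the 3 genes, every other metallothionein and the 3 nearest genes. From each of 8 lists, up to 4 genes with the smallest adjusted p were named. COPT1, NAS1, SodCc1, CatB, OsrbohB, SGR, NYC1, the ascorbate peroxidases and the vascular markers below 0 were named after their values were seen. Metallothioneins were found by name alone, as a planned search by protein sequence could not be made, and 2 list matches to genes of another kind were dropped by name. Same-numbered arrays correlated in their deviations from group means by 0.12, 0.12 and -0.02, so the numbers were not taken as pairs. There were 14 alternatives: a replicate block, other scalings, variance models, weights, filters and probe set choices, and each array left out in turn. Python 3.11.15 with pandas 2.3.3 and matplotlib 3.10.9 made tables and plots.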

Additional observations from a re-analysis of the deposited data

How the results depend on the processing

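The directions of OsMT-I-1b, OsMT-I-2b and OsMT-I-2c held under every alternative run. Their differences ran from 0.41 to 0.73, from -0.71 to -0.45 and from 0.48 to 0.75. Most alternatives could not have reversed them. The replicate block, the intensity trend and the filters left the differences unchanged by construction. Since the groups did not overlap, leaving out an array could not change a sign. OsMT-I-1b was not among the brighter genes. Centring on the median of the genes moved the median of all genes by -0.21, and with it OsMT-I-1b to 0.41, OsMT-I-2b to -0.71 and OsMT-I-2c to 0.48. The replicate block, with numbers shared without evidence of pairing, left these differences as they were and called 3743 genes higher and 1011 lower. Mutant replicate 1 alone of the mutant arrays correlated best with its own number.

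Genes called higher and lower numbered 1804 and 3935 with centring on the median of the genes, and 641 were lower with centring on that of the probe sets. Leaving out 1 array gave 2128 to 3639 higher and 572 to 1024 lower, least without wild type replicate 3. Of the other metallothioneins, 1 was lower with gene median centring, an intensity trend, brighter genes only, the mean of the probe sets, or without sets ending in _x_at or _s_at, and 1 higher with the trend. OsMT-I-1a turned to 0.037 with probe set centring and OsMT-I-4c to -0.19 with gene median centring; over arrays left out they ran from -0.055 to 0.015 and from -0.086 to 0.14.

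Smaller list counts are left out below where they changed by a ratio of 1.5 or less, except for those higher with gene median centring or an array left out. Gene median centring gave 12 metal transport, 4 chelation, 2 reactive oxygen, 2 senescence, 2 panicle, 1 dividing-cell, 3 vascular and 3 leaf blade genes lower. It gave 1 senescence gene higher. Higher calls fell from 6 to 4 in metal transport, reactive oxygen and dividing-cell genes and from 10 to 8 in panicle genes. Those of vascular genes stayed at 4. Leaving out 1 array gave 4 to 5 metal transport, 6 to 7 reactive oxygen, 4 to 6 dividing-cell and 8 to 9 panicle genes higher. The trend gave 1 chelation and 2 leaf blade genes higher, and 2 reactive oxygen, 1 vascular, 2 leaf blade and 0 senescence genes lower. Array weights gave 1 chelation gene higher. Brighter genes only, fewer by construction, gave 1 chelation, 2 panicle, 1 dividing-cell and 0 leaf blade genes higher, and 1 chelation, 1 vascular and 0 senescence genes lower. Lower were 0 senescence genes with probe set centring, 2 panicle and 2 leaf blade genes with the mean of the probe sets, and 2 leaf blade genes without _x_at and _s_at sets. With arrays left out, 1 to 2 chelation and 0 to 1 senescence genes were lower. The cause of these moves was not tested. With 3 arrays a group and near the brightest signals, small differences may go unseen.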
